A study of Mus musculus with 2 samples.

Results

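The nuclear-encoded subunits of the respiratory chain were followed in mouse haematopoietic stem and progenitor cells (HSPCs). Members were all genes whose symbol begins with Nduf followed by a, b, c, s or v and a number (complex I), is Sdha, Sdhb, Sdhc or Sdhd (complex II), or begins with Uqcr (complex III), Cox4 to Cox8 (complex IV) or Atp5 (complex V). This gave 84 of the 27998 genes in the matrices, with 37 in complex I, 4 in complex II, 8 in complex III, 18 in complex IV and 17 in complex V. The rule reads names, so it leaves out Cyc1, a subunit of complex III, and takes in Atp5sl, a gene now linked to the building of complex I, and Ndufa4, whose protein is now placed in complex IV.

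LSK cells (Lin- Sca-1+ c-Kit+) were sorted from the bone marrow of 3-month-old mice and profiled by droplet-based scRNA-seq that counts unique molecular identifiers (UMIs) at the 3′ ends of transcripts. There was 1 library per group. Trmt6 WT is labelled Trmt6fl/fl, without Cre, whereas the study's account of this experiment gives Trmt6+/+ with Mx1-Cre and its description of the mice Trmt6fl/+ with Mx1-Cre. Trmt6 cKO is labelled Trmt6fl/fl, MX1-cre. Mx1-Cre is switched on by interferon and so acts in many interferon-responsive cells and not in blood cells alone, and the study's account of the experiment has it induced with repeated injections of the interferon inducer pIpC. The labels name kit v2 and the methods kit v3, and neither says how many mice went into a library. Trmt6 encodes the non-catalytic partner of the tRNA m1A58 methyltransferase, whose catalytic partner is Trmt61a.

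The respiratory chain carries electrons from NADH (complex I) and succinate (complex II) through ubiquinone, complex III and cytochrome c to oxygen (complex IV), and complex V uses the proton gradient to make ATP. Complexes I, III, IV and V are built from subunits of both genomes, and complex II from nuclear genes alone. Long-term haematopoietic stem cells are known for relying on glycolysis and for raising mitochondrial respiration as they leave quiescence and differentiate.

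After filtering, 8142 WT and 8478 cKO cells remained, with 42664027 and 88127778 UMIs and a median of 4250 and 10145 UMIs per cell. The cKO library was therefore more than 2 times deeper, and 24 cell barcodes occurred in both libraries, which is 0.271% of those in WT and 0.259% of those in cKO. Levels are given as CPM, the UMIs of a gene scaled to the same total in each set of cells, without correction for length because tags come from the 3′ end. The targeted gene Trmt6 was at 63.9 CPM in WT and 50.3 in cKO (-0.34, -0.41 to -0.27 on the log2 scale). Trmt61a was at 16.4 and 32.9 CPM. Reads from the 3′ end of Trmt6 cannot show whether the floxed exon was lost, so this does not check the genotype. Stem, lymphoid-primed and granulocyte-monocyte markers of the fixed lists were detected in both libraries, whereas the neutrophil gate held 105 WT cells and 0 of the 8377 cKO cells with enough UMIs, so that a cKO share of up to 0.0358% remains possible.

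With 1 library per group no test between genotypes is possible and no p-value is given. Ratios are log2 of cKO over WT CPM, and their 95% intervals are exact binomial intervals that cover counting error only. The spread between mice is unknown. A gene was called higher or lower in cKO when its ratio was at least 0.32 away from 0 on the log2 scale and its interval excluded 0.

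As a whole, the nuclear respiratory chain took a similar share of both libraries. The 84 members together held 34698 CPM in WT and 36054 CPM in cKO, or 3.47% and 3.61% of all UMIs, a log2 ratio of 0.06 (0.05 to 0.06). Complex I summed to 12085 and 11914 CPM, complex II to 695 and 748 CPM, and complex III to 3912 and 4174 CPM. Complex IV summed to 8878 and 9564 CPM and complex V to 9128 and 9655 CPM. Complexes II to V were thus 0.08 to 0.11 higher on the log2 scale in the cKO library and complex I 0.02 lower. The complex I sum counts Ndufa4, at 1461 CPM in WT and 981 in cKO, whose protein is now placed in complex IV. This drop exceeds that of the complex I sum, so the lower sign of complex I depends on where Ndufa4 is counted. Counted in complex IV instead, it would lower that complex's ratio. Without the isoforms Cox4i2 and Cox6a2, complex IV summed to 8832 and 9134 CPM, a log2 ratio of 0.05 instead of 0.11, and all members to 34652 and 35624 CPM (0.04). Over the same cells cytosolic ribosomal protein genes took 31.4% of UMIs in WT and 36.2% in cKO, and the part of this in ratios scaled to the total was not tested.

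The spread between single cells, which includes the counting error of each cell, was wide compared with the difference between libraries. When each cell was thinned to 2000 UMIs, the 7947 WT cells had a median of 64.0 respiratory chain UMIs (quartiles 56.0 and 74.0) and the 8377 cKO cells a median of 70.0 (62.0 and 79.0). Complex I had a median of 23.0 UMIs per cell in both libraries, whereas complex V had 17.0 in WT and 19.0 in cKO. The distributions overlapped over most of their range.

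**Figure D1:**
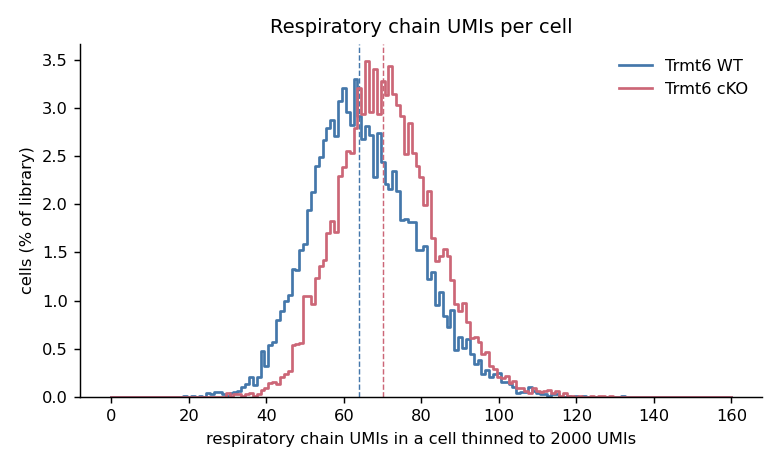
Respiratory chain UMIs per cell (x axis) against the percentage of cells of each library (y axis), after thinning every cell to 2000 UMIs, for Trmt6 WT and Trmt6 cKO. Dashed lines mark the medians of 64.0 and 70.0 UMIs, and the curves overlap over most of their width.

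Of the 84 members, 79 reached 5 CPM in a library and were compared. The others were Ndufa4l2 with 0 WT and 2 cKO UMIs, Cox7a1 with 113 and 195 UMIs, and Cox7b2, Cox8b and Cox8c with 0 UMIs in both libraries. Among the 79, 10 were called higher, 6 lower and 63 neither, and 52 lay above 0 with a median log2 ratio of 0.09. Over all 9145 genes compared, 16.7% were called higher, 28.1% lower and 43.2% lay above 0, with a median of -0.07. The split depended on scaling. The TMM factor moved the median of all genes by 0.10 and gave 18 members higher and 2 lower, and median-of-ratios size factors gave 19 and 2. All genes shifted too, with 53.2% above 0 for the TMM factor and 53.7% for size factors. The shares of all genes called at these and the following settings were not counted. Relative to the median of all genes, the members' median was 0.16, with 16 higher and 2 lower. At a limit of 1.5-fold 3 members remained higher and 0 lower.

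**Figure D2:**
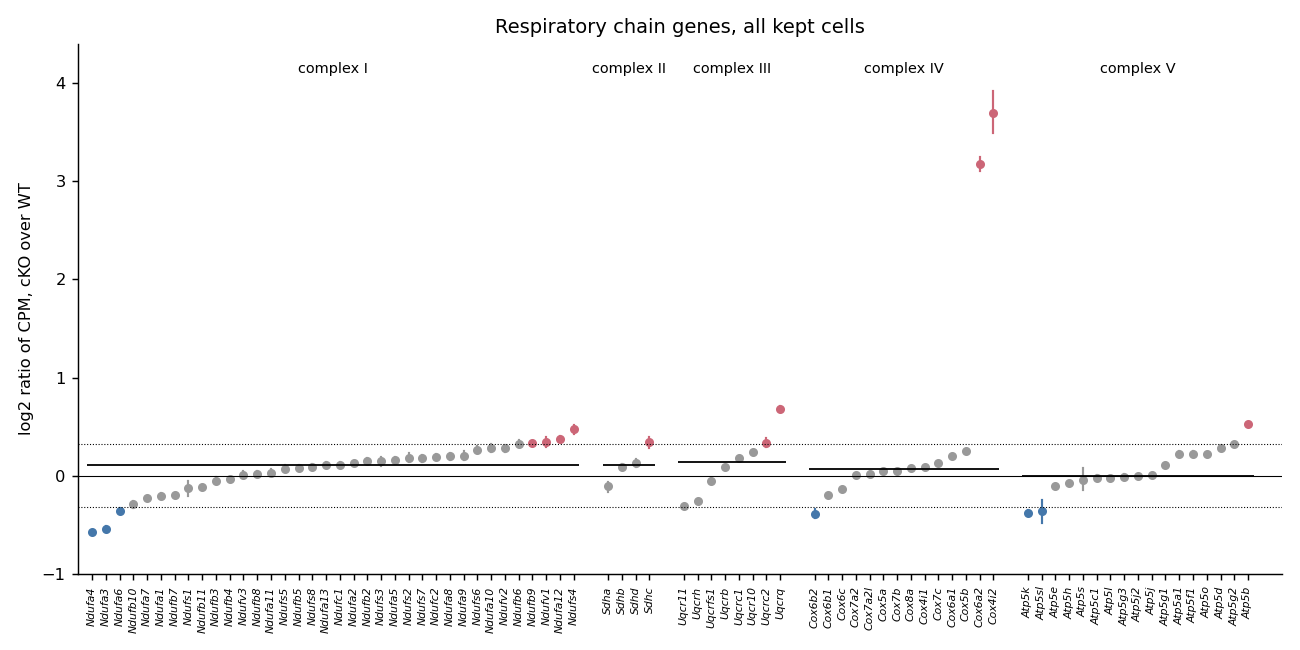
Log2 ratio of CPM, cKO over WT (y axis), for the 79 members compared, sorted within each complex (x axis). Vertical bars are 95% intervals of counting error, horizontal bars complex medians, dotted lines the limits for a call, red points called higher and blue points called lower. Cox4i2 (3.70) and Cox6a2 (3.18) stand far above the other members, which lie between -0.57 and 0.68.

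In complex I, the NADH dehydrogenase, 4 of 36 compared members were called higher and 3 lower, with a median of 0.11. The lower calls were Ndufa4 and a pair of accessory subunits. Ndufa4, the most abundant of the members named for complex I, was at 1461 CPM in WT against 981 CPM in cKO (-0.57, -0.59 to -0.56). Ndufa3 was at 563 and 388 CPM (-0.54, -0.56 to -0.51) and Ndufa6 at 571 and 446 CPM (-0.36, -0.38 to -0.33), a call that was lost with the TMM factor (-0.26). Among the higher calls was Ndufs4, an accessory subunit beside the electron-input module whose loss causes Leigh-like disease in mice, at 139.6 and 194 CPM (0.48, 0.43 to 0.52). Ndufv1, the subunit that binds NADH and FMN, was at 99.0 and 125 CPM (0.34). The accessory subunits Ndufa12 (0.37) and Ndufb9 (0.33) were the other two. The next most abundant members did not pass the limit, with Ndufa2 at 511 and 559 CPM and Ndufa7 at 576 and 492 CPM. The 7 nuclear core subunits, which hold the flavin and iron-sulphur clusters, had a median of 0.18 with 6 above 0, and the 28 other compared members without Ndufa4, all accessory, a median of 0.10 with 19 above 0.

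Complex II, succinate dehydrogenase, had a median of 0.11 over its 4 subunits. Sdhc, a membrane anchor, was at 89.4 CPM in WT against 113 CPM in cKO (0.34, 0.28 to 0.39) and was called higher, a call lost in thinned cells and without a cell filter (0.32 in both). The other anchor Sdhd was at 197 and 215 CPM (0.13). The catalytic pair gave no call, with the flavoprotein Sdha at 101 and 92.9 CPM (-0.11, -0.17 to -0.06) and the iron-sulphur protein Sdhb at 309 and 327 CPM (0.09). Sdha lay above 0 when cells were thinned (0.03), in cells without cycle UMIs (0.07) and at the same mix of gates (0.07).

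In complex III, 2 of 8 members were called higher and 0 lower, with a median of 0.13. Uqcrq, a small subunit near the ubiquinone site, was at 464 CPM in WT against 744 CPM in cKO (0.68, 0.66 to 0.71), at the 94.7th percentile of all genes compared. The thinned cells showed the same order, with a Uqcrq UMI in 54.0% of WT cells and 71.9% of cKO cells (76.8% and 95.8% before thinning). The core protein Uqcrc2 was at 140.4 and 177 CPM (0.33), which missed the limit in cells without cycle UMIs (0.28). The most abundant members were Uqcr10 (659.5 and 777 CPM), Uqcrh (714 and 596 CPM) and Uqcrb (632 and 674 CPM), and none of them passed the limit. Uqcr11 (698 and 563 CPM, -0.31) lay just inside the lower limit.

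Complex IV, cytochrome c oxidase, held the largest ratios of all members. Of its 14 compared members 2 were called higher and 1 lower, with a median of 0.07. Cox4i2 and Cox6a2, tissue-restricted isoforms of subunits 4 and 6a, were the higher calls and are described with their partner isoforms. The lower call, Cox6b2, an isoform best known from testis, was at 144 and 111 CPM (-0.39, -0.43 to -0.34). This call was lost with the TMM factor (-0.29), in thinned cells (-0.30) and in cells without cycle UMIs (-0.05). The most abundant members Cox7c (1169.8 and 1279.8 CPM), Cox8a (1173 and 1241 CPM) and Cox4i1 (1097 and 1167 CPM) were within 0.13 of 0 on the log2 scale.

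Complex V, the ATP synthase, had a median of 0.00, with 1 of 17 members called higher and 2 lower. Atp5b, the catalytic beta subunit of the F1 head, was at 582 CPM in WT against 839 CPM in cKO (0.53, 0.51 to 0.55). Atp5k, the small subunit e of the membrane part, was at 572 and 440.2 CPM (-0.38, -0.40 to -0.35), a call lost with the TMM factor (-0.28) and in cells without cycle UMIs (-0.17). Atp5sl was at 23.4 and 18.2 CPM (-0.36, -0.48 to -0.25), a call also lost with the TMM factor (-0.27). The most abundant members were level, with Atp5l at 1183 and 1163 CPM, Atp5j at 823 and 827 CPM and Atp5g1 at 799.7 and 861 CPM. The 3 genes for the identical ring subunit c differed among themselves. Atp5g2 was at 728 and 905 CPM (0.32), just short of the limit, Atp5g1 at a ratio of 0.11 and Atp5g3 at -0.01.

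On GRCm38, Uqcrq lies at chr11:53427922-53430831 and Atp5b at chr10:128083273-128090391, Ndufa4 at chr6:11900292-11907497 and Ndufa3 at chr7:3617373-3620327. Upstream sequence of called members is shown to set members called in opposite directions side by side. Promoter windows of 250 bases before to 50 bases after the start (RefSeq, GRCm38.p6) matched 69 of the 84 members. Below are the parts upstream of both the RefSeq and the GENCODE start for Atp5b and Ndufv1 (called higher) and Ndufa4 and Ndufa3 (called lower), 5′ to 3′ on the gene's strand, with motif matches in capitals. They lie at chr10:128083057-128083272 on the plus strand, chr19:4012807-4013005 on the minus strand, chr6:11907498-11907700 on the minus strand and chr7:3617123-3617372 on the plus strand.
Atp5b: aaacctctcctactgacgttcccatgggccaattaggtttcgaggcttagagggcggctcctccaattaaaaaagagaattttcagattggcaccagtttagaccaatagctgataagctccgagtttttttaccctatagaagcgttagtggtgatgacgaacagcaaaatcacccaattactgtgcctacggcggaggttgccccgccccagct
Ndufv1: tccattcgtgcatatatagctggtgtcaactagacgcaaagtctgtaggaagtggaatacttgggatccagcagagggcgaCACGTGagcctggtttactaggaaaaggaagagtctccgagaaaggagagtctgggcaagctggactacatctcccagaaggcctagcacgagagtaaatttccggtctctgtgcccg
Ndufa4: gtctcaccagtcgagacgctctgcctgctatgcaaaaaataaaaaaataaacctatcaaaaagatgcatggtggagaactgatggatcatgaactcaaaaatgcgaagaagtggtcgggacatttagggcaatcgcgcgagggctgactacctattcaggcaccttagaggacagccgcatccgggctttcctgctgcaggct
Ndufa3: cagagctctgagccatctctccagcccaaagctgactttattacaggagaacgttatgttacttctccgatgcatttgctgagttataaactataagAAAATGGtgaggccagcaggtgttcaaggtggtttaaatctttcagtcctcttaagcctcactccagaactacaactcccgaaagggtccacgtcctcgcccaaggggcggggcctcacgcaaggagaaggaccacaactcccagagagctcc

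The windows were searched on both strands for 5 motifs of factors linked to metabolic genes. CCGGAAG, the ETS core read by GABP, was in 16 of the 69 members (23.2%), in 9.93% of all promoters and in 23.2% of those of the genes compared. CCATNTT, a core read by YY1, was in 21 members (30.4%), against 18.2% of all and 19.2% of compared genes. The E-box CACGTG was in 7 members (10.1%), against 8.09% and 12.4%, and TGACGTCA, a cAMP response element, in 4 (5.80%), against 2.03% and 3.88%. TGATGNAA, the composite site of ATF4 and its partners, was in 0 members, against 4.51% and 2.64%. In the stretches printed above, Ndufv1 holds an E-box starting 169 bases before its RefSeq start and Ndufa3 the YY1 core, on the other strand, 153 bases before. Those of Atp5b and Ndufa4 hold none of the 5. Of the called members with a window, the YY1 core was in 2 of 4 called higher and 3 of 6 called lower. The 5 motifs do not overlap in the sequences shown.

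Cox4i2 replaces the ubiquitous Cox4i1 mainly in lung and in low oxygen, and Cox6a2 replaces Cox6a1 in heart and skeletal muscle. Both minor isoforms were much higher in the cKO library, and their major partners had far smaller ratios. Cox4i2 had 185 UMIs in WT and 4984 in cKO, or 4.34 and 56.6 CPM (3.70, 3.49 to 3.92), passing the minimum of 5 CPM through cKO alone, and Cox6a2 had 1753 and 32889 UMIs, or 41.1 and 373 CPM (3.18, 3.11 to 3.25). They stood at the 99.7th and 99.6th percentile of the ratios of all genes compared. Cox4i1 was at 0.09 and Cox6a1, at 679.8 and 783 CPM, at 0.20. Cox6a1 ranged from 0.20 to 0.41 over the alternatives, with the highest value in cells without cycle UMIs, and was called higher in the HSC gate (507 and 728 CPM, 0.52). Cox4i2 made up 0.394% (exact 95% interval 0.339 to 0.455) of the UMIs of the Cox4i pair in WT and 4.62% (4.50 to 4.75) in cKO. Cox6a2 made up 5.70% (5.44 to 5.96) and 32.3% (32.0 to 32.6) of the Cox6a pair. Cox6b2 did not follow, with 15.1% (14.8 to 15.5) of the Cox6b pair in WT and 13.5% (13.3 to 13.8) in cKO, nor did Cox7a1, with 0.462% and 0.384% of the Cox7a1 and Cox7a2 pair. Cox4i2 lies at chr2:152754173-152765037 and Cox6a2 at chr7:128205435-128206387, where its gene overlaps Itgad on the opposite strand.

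Cells with a UMI of each isoform were counted next. Such a share follows the mean level and the depth, and does not give the share of cells that express the gene. After thinning to 2000 UMIs, 0.944% of WT cells (75 of 7947, exact 95% interval 0.743 to 1.18) and 10.2% of cKO cells (856 of 8377, 9.58 to 10.9) had a Cox4i2 UMI. For Cox6a2 the shares were 4.91% (4.44 to 5.41) and 24.4% (23.5 to 25.3). Without thinning they were 2.10% and 34.5% for Cox4i2 and 9.05% and 42.7% for Cox6a2. A single cKO cell held up to 96 Cox6a2 UMIs and a WT cell up to 19, against 14 and 3 for Cox4i2. Both isoforms were detected together in 2 WT and 140 cKO cells, that is in 16.4% of the cKO cells with Cox4i2 and 6.85% of those with Cox6a2. Over all thinned cKO cells 24.4% held Cox6a2, and the difference between these shares was not tested.

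The isoforms were then followed by lineage. Cells were gated on fixed marker lists of stem cells (HSC), lymphoid-primed (LMPP) and granulocyte-monocyte progenitors (GMP), megakaryocyte and monocyte or dendritic (DC) cells. Cox6a2 was already present in the WT LMPP gate, in 27.4% of 325 cells, and reached 73.6% of 163 cells in cKO. In the GMP gate the share went from 2.57% of 2801 cells to 57.2% of 180, and in the monocyte or DC gate from 23.9% of 109 to 40.7% of 54. In the WT HSC gate it was found in 0 of 267 cells, a count of 0 that allows up to 1.12%, and in the cKO gate in 7.18% of 864 cells (5.55 to 9.11). In CPM the cKO HSC gate was at least 19.0-fold and the megakaryocyte gate at least 30.7-fold higher than the level that 3 UMIs would give in the WT gate.

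Cox4i2 was read in the same gates. It was in 12.7% of the cKO HSC gate (10.6 to 15.1) and in 1 of 267 WT HSC-gated cells. In cKO it was in 8.62% of 58 megakaryocyte-gated and 3.89% of 180 GMP-gated cells, and in 0 of 163 LMPP-gated and 0 of 68 B cell-gated cells at 2000 UMIs. Before thinning the shares were 37.2% in the HSC gate, 23.9% in the GMP gate, 3.07% in the LMPP gate and 1.47% in the B cell gate, with a median of 7619.5, 14162, 8484 and 6789.5 UMIs per cell. All UMIs of these gates gave 73.7, 22.2, 4.08 and 2.05 CPM, the last pair from 6 and 1 UMIs.

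Free RNA in droplets can add UMIs to any cell, and its part in these shares was not tested. The lowest Cox6a2 share among the cKO gates compared was 7.18% in the HSC gate, and a single cell of that gate held up to 14 Cox6a2 UMIs. The level of free RNA was not measured. Neither this share nor the 19.0-fold bound of the same gate is therefore read as expression by stem cells. Pooled over HSC-gated cells, Cox4i2 had 2 UMIs in WT and 518 in cKO (4.77, 3.23 to 8.14). This ratio rests on a WT count under the floor of 3 UMIs, and the gene passed the minimum through cKO alone. The cKO level was 22.7-fold that which 3 UMIs would give in the WT gate.

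**Figure D3:**
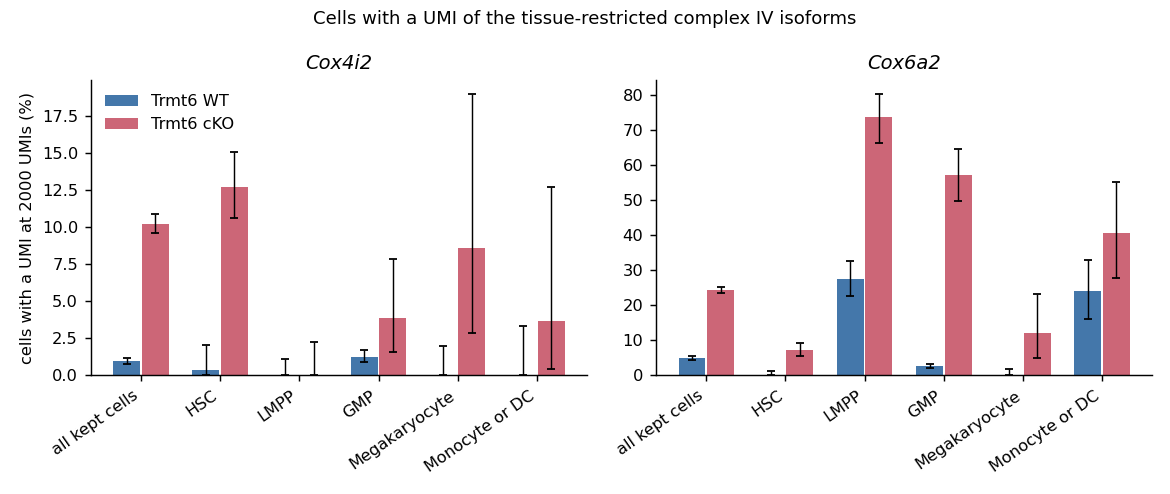
Percentage of cells with at least 1 UMI (y axis) of Cox4i2 (left) and Cox6a2 (right) in all kept cells and 5 marker gates (x axis), each cell thinned to 2000 UMIs, with bars for the libraries and exact 95% intervals that cover counting error only. Cox6a2 peaks in the LMPP gate at 27.4% in WT and 73.6% in cKO, and Cox4i2 in the cKO HSC gate at 12.7%.

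The lineage gates were compared next, since the WT and cKO libraries hold different mixes of cells (35.2% of WT and 2.15% of cKO cells were GMP-gated, and 53.5% and 83.0% had no gate). Levels within a gate use all UMIs of its cells and a minimum of 20 CPM. The gates share the same pair of libraries and are not replicates of the genotype.

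In the HSC gate (267 WT and 864 cKO cells) 21 of 78 compared members were called higher and 3 lower, with a median of 0.19 and 64 above 0. The 21 include Cox4i2 (2.16 CPM in WT and 73.7 in cKO) and Cox6a2 (0 and 61.6). Both passed the minimum through cKO alone and so had to be higher. Over all 5746 genes in this gate 12.4% were called higher and 21.5% lower, with a median of -0.07. Every complex had a positive median here, from 0.11 for complex I to 0.29 for complex II and 0.30 for complex III. Atp5b was at 453 CPM in WT against 714 CPM in cKO (0.65, 0.51 to 0.80), Uqcrq at 353 and 573 CPM (0.70, 0.54 to 0.87) and Ndufv1 at 69.2 and 104 CPM (0.57, 0.21 to 0.97). Sdhc (0.53, and 0.40 with an interval that held 0 in cells without cycle UMIs), Atp5g2 (0.59), Uqcrc2 (0.56) and Cox6a1 (0.52) were also called. The lower calls were Ndufa4 (-0.33), Ndufa6 (-0.37) and Cox6b2 (-0.33). A total that leaves out mitochondrial and ribosomal protein genes gave 38 higher and 0 lower, with these 3 at -0.23, -0.27 and -0.23. Of all genes 51.4% then lay above 0 instead of 43.9%, and their shares called were not counted. With doublets kept only Ndufa6 was called lower, and with 1 more marker required Cox6b2 was at 0.22. Within the WT library the HSC gate summed to 31008 CPM against 34779.6 CPM in the other cells (-0.17), and within the cKO library to 34949.9 against 36149.6 CPM (-0.05). The LMPP gate also lay below the other cells of its library (-0.15 in WT and -0.08 in cKO). The other cells differ between libraries, since 35.2% of WT and 2.15% of cKO cells were GMP-gated and the WT GMP gate was at 36779.9 CPM. All 10 marker lists summed to less in cKO than in WT in this gate. The HSC list, with 8 of 8 markers detected in both, summed to 1124 CPM in WT and 715 in cKO, the GMP list to 1145 and 482 CPM (5 and 6 of 6 detected) and the neutrophil list to 304 and 3.98 CPM (7 and 5 of 8 detected). The T or NK cell list went from 412 to 179 CPM, the megakaryocyte list from 154 to 70.3 CPM, the LMPP list from 110.4 to 29.4 CPM and the basophil or mast cell list from 48.7 to 4.55 CPM. Their part in the result was not tested.

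In the LMPP gate (325 and 163 cells) 19 of 78 members were called higher and 7 lower, with a median of 0.07, against 15.9% and 20.6% of all genes. With 1 more marker required 11 were called higher. That setting leaves fewer cells, and its share of all genes called was not counted, so the 11 have no background. Among the lost higher calls Ndufa10 (0.36), Ndufb6 (0.37), Ndufv1 (0.40) and Uqcrc2 (0.38) kept ratios past the limit. The other lost higher calls fell short of it. Atp5b was at 507 and 907 CPM (0.84, 0.71 to 0.97) and Uqcrq at 363 and 646 CPM (0.83, 0.68 to 0.99). In this gate the B cell list summed to 80.3 CPM in WT and 369 CPM in cKO, the GMP list to 1041 and 422 CPM, the neutrophil list to 219 and 2.04 CPM and the monocyte or DC list to 551 and 318 CPM, while the LMPP list summed to 2289 and 2068 CPM with 7 of 7 detected in both. Their part was not tested.

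In the GMP gate (2801 and 180 cells) the members stood close to 0, with 9 of 79 called higher, 11 lower and a median of 0.01, against 20.4% and 22.2% of all genes. The sign of this median depended on the setting, at -0.08 with 1 more marker required and 0.08 with a total that leaves out mitochondrial and ribosomal protein genes. Complex I summed to 12728 CPM in WT and 11728 CPM in cKO (-0.12), with Ndufa4 counted in it at 1582 and 1163 CPM. Cox6a2 reached 855 CPM in the cKO gate from 17.4 CPM in WT (5.62, 5.45 to 5.79). It and Cox4i2 (5.44 CPM in WT and 22.2 in cKO) are among the 9 higher calls. Both passed the minimum through cKO alone and so had to be higher. The GMP markers themselves, with 6 of 6 detected in both, summed to 12271 CPM in WT and 6715 CPM in cKO. The neutrophil list went from 827 to 85.8 CPM, the LMPP list from 217 to 76.4 CPM and the monocyte or DC list from 454 to 162 CPM in the same cells, and their part was not tested.

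In the megakaryocyte gate (186 and 58 cells) 13 of 78 members were called higher and 7 lower, with a median of 0.04, against 10.3% and 13.4% of all genes. The 13 include Cox4i2 (2.09 CPM in WT and 32.5 in cKO) and Cox6a2 (0 and 96.2). Both passed the minimum through cKO alone and so had to be higher. A total that leaves out mitochondrial and ribosomal protein genes gave 4 lower and a median of 0.12. Its own marker list summed to 4159 and 1296 CPM, with 6 of 6 detected in both, the neutrophil list to 199.6 and 4.44 CPM and the HSC list to 272 and 172 CPM. Their part was not tested. In the monocyte or DC gate (109 and 54 cells) the counts turned, with 3 of 78 called higher and 11 lower and a median of -0.09, against 8.68% and 8.76%. Sdhb was at 442 and 304 CPM there (-0.53, -0.89 to -0.20). With gates drawn on all UMIs this gate gave 8 higher, 6 lower and a median of 0.03, with Sdhb at -0.23 and not called, so its direction depended on which cells entered. All genes there had a median of 0.01, and their shares called were not counted. The monocyte or DC list itself summed to 4110.1 CPM in WT and 8897 CPM in cKO. The GMP list summed to 1459 and 270.3 CPM, the neutrophil list to 179 and 3.11 CPM and the B cell list to 54.0 and 214 CPM. The HSC list went from 57.5 to 158 CPM, the basophil or mast cell list from 10.4 to 31.1 CPM and the T or NK cell list from 235 to 292 CPM. Of the 10 lists 5 summed to less in cKO, and their part was not tested.

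**Figure D4:**
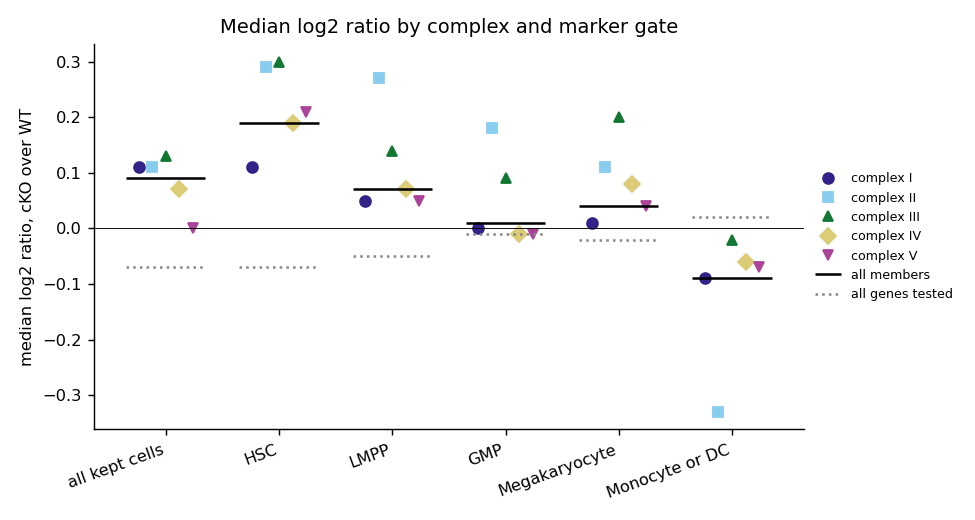
Median log2 ratio of CPM, cKO over WT (y axis), of each complex (symbols), of all members (solid bars) and of all genes compared (dotted bars) in all kept cells and 5 marker gates (x axis). The members' median is highest in the HSC gate (0.19) and below 0 in the monocyte or DC gate (-0.09).

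Of the 76 members compared in all 5 gates, 17 (22.4%) lay above 0 in every gate and 11 (14.5%) in none. Over the 4530 genes compared in all 5 gates the shares were 17.6% and 18.7%, so the members' counts were near this background. Cox6a2, one of the 17, passed the minimum of 20 CPM in the HSC, GMP and megakaryocyte gates through cKO alone, and had to be higher there. Uqcrq was called higher in 5 of 5 gates, with ratios between 0.54 and 0.83, and Atp5b, Ndufv1 and Uqcrc2 in 4. Ndufa4, Ndufa3, Atp5k and Cox6b2 were called lower in 4 of 5 gates. Ndufa3, for example, was at 587 CPM in WT against 332 CPM in cKO in the GMP gate (-0.82) and at 658 and 432 CPM in the megakaryocyte gate (-0.61).

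Cells were also divided by whether they had any UMI of 12 cell cycle genes after thinning. Among cells without such UMIs, 27.9% of WT and 25.8% of cKO cells, 20 members were called higher and 4 lower with a median of 0.18, against 16.5% and 31.7% of all genes. Among the remaining cells 7 were higher and 7 lower with a median of 0.07, against 17.5% and 26.5%. The difference between these strata was not tested.

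The mitochondrially encoded subunits were lower in the cKO library. Together they held 23515 CPM in WT and 18224 CPM in cKO (-0.37), and 0 of the 12 compared were called higher and 9 lower, against 16.7% and 28.1% of all genes. With the TMM factor 6 were called lower, without mt-Nd1, mt-Co1 and mt-Cytb, and in cells without cycle UMIs 11. The nuclear sums were higher in cKO for complexes III, IV and V. With Ndufa4 counted in it, complex I was 0.02 lower on the log2 scale, and its mitochondrial sum 0.42 lower. The largest difference was in mt-Atp8, a small subunit of complex V, at 113 and 38.4 CPM (-1.56), while mt-Co3 of complex IV was at 3071 and 2981 CPM (-0.04). For each nuclear respiratory chain UMI there were 0.678 mitochondrially encoded ones in WT and 0.505 in cKO. By complex this ratio was 0.348 and 0.263 for complex I, 0.598 and 0.435 for complex III, 1.08 and 0.854 for complex IV and 0.811 and 0.529 for complex V. The cell limits allow up to 10% mitochondrial UMIs in WT and 5% in cKO, and with 5% in both the summed ratio was -0.36. The mitochondrial sum was lower in cKO in all 5 gates, from -0.21 in the monocyte or DC gate to -0.46 in the LMPP gate.

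Other nuclear genes of the pathway, from a list of assembly factors, electron carriers and regulators, were compared by the same rule. Leaving out genes that are members, 72 were found and 69 compared, of which 23 were called higher and 6 lower, with a median of 0.20, against 16.7% and 28.1% of all genes and a median of -0.07. With the TMM factor 30 were called higher and 2 lower (Pet100 and Uqcc3), with a median of 0.29. At that setting 53.2% of all genes lay above 0 instead of 43.2%. Among ubiquinone and cytochrome c genes 7 of 10 were called higher and 0 lower. Coq3, a methyltransferase of ubiquinone synthesis, was at 10.2 CPM in WT with a ratio of 0.98 and Pdss1, which makes its side chain, at 12.8 and 22.0 CPM (0.79). Cycs, cytochrome c itself, was at 551 and 684 CPM (0.31), just below the limit, and Cyc1 of complex III at 188 and 294 CPM (0.64). Of 13 complex I assembly factors 4 were higher and 0 lower, with Ecsit at 0.71 and Ndufaf4 at 0.68. Of 18 complex IV factors 5 were higher and 3 lower, from Cox18 at 21.6 and 36.6 CPM (0.76) to Pet100 at 219 and 130.3 CPM (-0.75). Other low values were Uqcc3 (-0.47) and Cox20 (-0.41), which help to build complexes III and IV. Atpif1, the inhibitor of complex V, was at 1301 and 1009 CPM (-0.37), a call lost with the TMM factor (-0.27). Among 12 compared regulators Pprc1 (0.74), Tfam (0.43, but 0.26 in cells without cycle UMIs), the factor that packages mitochondrial DNA, and Ppargc1b (0.40) were called higher. Nrf1 (0.26), Gabpb1 (0.17), Esrra (0.03), Yy1 (-0.03) and Gabpa (-0.22) gave no call, and Ppargc1a had 20 and 39 UMIs.

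Transcript length went with the ratios among the members. The median length of a gene's protein-coding transcripts (GENCODE M21) was 434.00 bases for the 6 members called lower and 826.50 bases for the 10 called higher. This length is taken over all annotated transcripts, for example 651 bases for Ndufs1 and 533 for Uqcrc1. The mRNA expressed in these cells can differ in length, which was not tested. Over the 79 compared members, Pearson's r between log2 length and log2 ratio was 0.117 and Spearman's rho 0.374, across genes that share the same 2 libraries. Without Cox4i2 and Cox6a2, whose ratios lie far from the rest, the values over 77 members were 0.352 and 0.383. All genes compared with a known length gave -0.0554 and -0.156. The 11 members under 500 bases had a median of -0.31, with 0 called higher and 5 lower, and the other 66 a median of 0.11, with 8 higher and 1 lower. Of all 165 compared genes under 500 bases 30 were called higher and 61 lower, with a median of -0.10. The short members had a median below 0 in every gate compared, from -0.13 in the HSC gate to -0.42 in the GMP gate. All compared genes under 500 bases did so too, from -0.05 in the HSC gate to -0.14 in the GMP gate. In the monocyte or DC gate the other members also lay below 0 (-0.06). Uqcrq, the highest member outside the isoforms, is just above 500 bases, and the limit of 500 was set after the values had been seen. The libraries also differed in depth, which cannot be told apart from genotype.

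**Figure D5:**
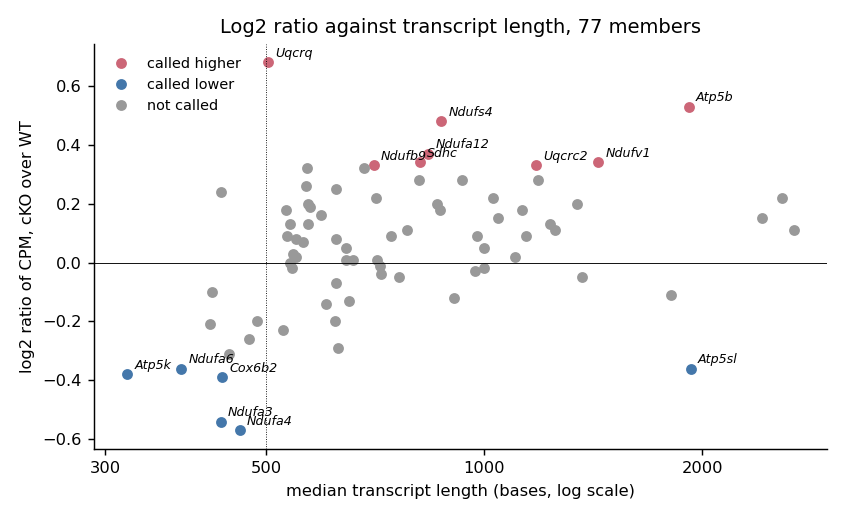
Log2 ratio of CPM, cKO over WT (y axis), against median transcript length in bases (x axis, log scale) for the 77 compared members other than Cox4i2 and Cox6a2, coloured by call, with a dotted line at 500 bases. Called members are named, and 5 of the 6 called lower are shorter than 500 bases.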

How the data were processed

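LSK cells were profiled in 1 Trmt6 WT and 1 Trmt6 cKO library. The authors deposited tables of UMI counts, with a row for each gene and a column for each barcode, which according to the methods and processing notes were made with Cell Ranger 6.0.0 on mm10. The deposited counts are not normalized and were used as they stand. Cells had more than 200 genes, fewer than 4000 (WT) or 4500 (cKO), under 10% (WT) or 5% (cKO) mitochondrial and under 5% hemoglobin UMIs, as in the study. Likely doublets were scored against simulated pairs (50 neighbours, 20 components of 1500 genes) and removed at 0.8% per 1000 barcodes, which took out 621 and 673 cells, so 8142 and 8478 cells were kept (42664027 and 88127778 UMIs). Counts were summed, scaled to CPM and given exact Poisson or binomial intervals, with 0.5 added to each count in a ratio. These intervals cover counting error only. The floor for a count of 0 is 3 counts. Gates used cells thinned to 2000 UMIs (195 WT and 101 cKO cells were too shallow) and at least 50 cells in each library. Each gate asks for 2 or 3 distinct markers of its list and more than of any other list.

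Genes were named by rule: the 5 highest and 5 lowest members at 50 CPM or more, the highest, lowest and 3 most abundant of each complex, the highest and lowest of each complex in the HSC gate, the isoform sets, the extremes and regulators of the pathway list, and Trmt6 and Trmt61a. Other genes named with their calls were chosen after their values were seen. Members and lists were chosen with earlier results of these data known. Overlapping genes on the opposite strand were listed for 23 of 83 members. The ratio code was tested on simulated data. Python 3.11.15, NumPy 2.4.6, SciPy 1.17.1, pandas 2.3.3 and matplotlib 3.10.9 were used. Alternatives are in the closing section.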

Additional observations from a re-analysis of the deposited data

How the results depend on the processing

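No paired analysis was possible because there was 1 library per group and the labels carry no replicate numbers. Against 10 members higher, 6 lower and a median of 0.09 in all kept cells (complex I 0.11), the TMM factor gave 18, 2 and 0.19 (complex I 0.21), median-of-ratios size factors 19, 2 and 0.19 (0.21), and a total that leaves out mitochondrial and ribosomal protein genes 18, 2 and 0.19 (0.21). Scaling each cell first gave 18 higher and a median of 0.15, thinned cells 16 and 0.15, and cells without cycle UMIs 20 and 0.18. Calls relative to the median of all genes gave 16 higher, 2 lower and a median of 0.16, and a 1.5-fold limit 3 and 0. In the HSC gate (21, 3 and 0.19) a total that leaves out mitochondrial and ribosomal protein genes gave 38, 0 and 0.30, and keeping doublets left 1 lower. With the same total the GMP median (0.01) became 0.08 and the megakaryocyte median (0.04) 0.12, with 4 instead of 7 lower and complex I at 0.10 instead of 0.01. Requiring 1 more marker gave 11 instead of 19 higher in the LMPP gate, with complex II at 0.45 instead of 0.27, and a GMP median of -0.08. Gates on all UMIs turned the monocyte or DC median from -0.09 to 0.03, with 8 higher and 6 lower instead of 3 and 11, complex I at 0.08 and complex II at -0.06 instead of -0.09 and -0.33. These shifts have no tested cause. The shares of all genes called at these settings were not counted, so the counts stand without a background. Cox4i2 stayed between 3.51 and 3.92 and Cox6a2 between 2.89 and 3.35 under 11 alternatives.

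Cells without cycle UMIs could not be compared in the LMPP, GMP, megakaryocyte and monocyte or DC gates, nor 1 more marker in the last 2, since under 50 cells were left. With 1 library per group, differences between mice, library depth and genotype cannot be told apart. The depth limits Cox4i2 in small gates, where 3 UMIs or fewer were found in WT.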
